A study of Gallus gallus and Dromaius novaehollandiae and Alligator mississippiensis with 60 samples.

Results

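Dermis of chicken skin appendages was compared between morphogenesis, when an appendage grows out, and placode, when its primordium is first set up. The comparison used all chicken dermis libraries of the series, 10 of its 60 libraries: 5 at morphogenesis, from feathers of the dorsal and femoral tracts, scutate and reticulate scales, and claw, and 5 at placode, from the same sites. The others are epidermis, and of these the 20 chicken libraries and the emu feather libraries serve for comparison. No genotype, strain or treatment other than the parting of the layers with dispase is given in the labels for any group, and each group of dermis is 1 library. Per the labels, feather embryos were at Hamburger and Hamilton stage 36 at morphogenesis and 33 to 34 at placode, scutate scale embryos at 40 and 37, reticulate scale embryos at 40 and 39, and claw embryos at 38 and 36. The Hamburger and Hamilton (HH) series orders chicken development by external form, so the interval between the stages was 2.5 HH stages in feather, 3 in scutate scale, 1 in reticulate scale and 2 in claw. Dorsal and femoral feather of a stage carry the same specimen number in their titles, so the 5 libraries of each stage came from 4 specimens.

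Skin appendages form where epidermis and the dermis under it signal to each other. In feather, dermal cells gather beneath the epidermal placode into a condensation, and during outgrowth the mesenchyme fills the core of the bud, from which the dermal papilla and pulp later derive. Scutate scales are the large overlapping plates on the front of the bird's shank, reticulate scales the small rounded ones of the foot pad, and the claw covers the tip of the toe. Dermis holds fibroblasts and their matrix together with vessels, nerves and other cells, and in such bulk tissue fewer cells of a type and less RNA per cell cannot be told apart.

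Values are TPM, the length-scaled share of a library's transcripts held by a gene, as deposited for 17889 chicken gene identifiers. The files pair no identifier with a gene symbol and 0 matched the reference names used here, so genes are given by identifier, without function, and the gene lists by symbol could not be read. In their place, a dermis list held the 1012 genes at least 4-fold higher in dermis than in epidermis on average and higher in each of the 10 classes of appendage and stage, and an epidermis list held the 378 genes with the reverse. The dermis list made up 7.42% to 17.3% of the TPM of dermis libraries, against 0.461% to 1.499% in chicken epidermis. The epidermis list made up 0.238% to 0.590% of dermis libraries, against 2.80% to 9.58% of epidermis. Both lists were chosen on these same libraries, so the direction of these contrasts follows from the rule and does not check the parting of the layers. Dermis libraries had 11797 to 12158 genes at 1 TPM or more, and 12860 genes with 1 TPM in at least 2 of them were tested. No depth can be read from TPM. A sequencing lane stands in the labels of 6 dermis libraries: lane 8 held both stages of scutate scale and of claw and dorsal feather at morphogenesis, and lane 7 dorsal feather at placode, so too few pairs share a known lane for a fit within it.

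One set of genes split the libraries by embryo and touches the feather comparison. In dermis, 16 genes that were 2-fold or more lower in both feather tracts, lower in no other appendage by 0.5 on the log2 scale and 2-fold or more higher in reticulate scale summed to 573 to 748 TPM in 5 libraries and to 22.2 to 82.2 TPM in the other 5. The high libraries were reticulate scale and claw at morphogenesis and both feathers and claw at placode. The rule that chose these genes set the sides of feather and reticulate scale dermis. Of the 16 chicken specimens 9 have 2 or more libraries, and in all 9 these lay on 1 side of the divide. The column totals split the same way, 996902 to 997588 TPM in the high dermis libraries and 999867 to 999890 TPM in the low ones. The labels name no property of the embryos that follows this split.

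A larger share of the variation among dermis libraries lay between appendages than between stages. Of the sum of squares of log2(TPM + 1) over all genes tested, 64.7% lay between appendages, 12.9% between stages and 22.5% remained. Appendage has 5 levels and stage 2, so these shares cannot be compared as they stand. Appendage was also partly confounded with embryo and HH stage. The first principal component (31.8% of variance) set claw at one end and feather at the other, and the third (12.3%) held both feathers at morphogenesis, at scores of 38.9 and 38.1, apart from both at placode, at -20.04 and -10.7. Scutate scale had the most genes 2-fold or more apart between the stages, 826 higher and 988 lower at morphogenesis. Dorsal feather had 948 higher and 451 lower, claw 623 and 553, femoral feather 678 and 243, and reticulate scale, with the shortest interval, 236 and 228. With 1 library for each stage and appendage these counts have no replicate check. In scutate scale the median change of all genes was -0.27; with each library rescaled by its median ratio to a common mean (median-of-ratios), its counts were 1248 higher and 540 lower. Across genes, the changes of dorsal and femoral feather, which share specimens, correlated at r = 0.72. Those of scutate and reticulate scale correlated at 0.34 and those of femoral feather and reticulate scale at -0.01, and genes are not independent replicates.

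**Figure D1:**
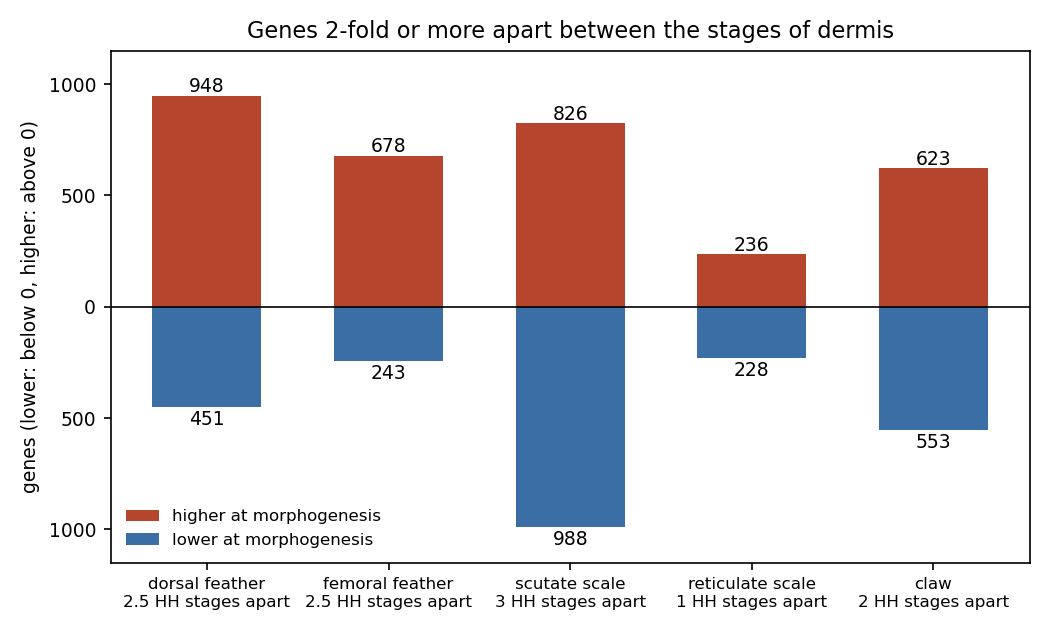
Number of genes of the 12860 tested that were 2-fold or more higher (above 0) or lower (below 0) at morphogenesis than at placode, on log2(TPM + 1), in dermis of each appendage, 1 library a stage. Scutate scale had 826 higher and 988 lower, and reticulate scale, whose libraries were 1 HH stage apart, 236 and 228.

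The question of changes shared by all 5 appendages was put to a fit with terms for appendage and stage (limma, Benjamini-Hochberg adjusted p below 0.05 over all genes tested). It called 2 genes, 0.0156% of those tested, 1 higher and 1 lower, and both changed the same way in all 5 appendages. At an unadjusted p below 0.05 there were 2292. ENSGALG00000004286 rose at morphogenesis. Its level at morphogenesis was 16.1 and 27.7 TPM in dorsal and femoral feather, 38.8 and 35.8 TPM in scutate and reticulate scale and 43.3 TPM in claw, against 1.92, 4.09, 8.15, 11.5 and 8.10 TPM at placode in the same order. Every morphogenesis library lay above every placode library. The log2 change was 2.20 ± 0.17 (SE, n = 5 appendages; limma adjusted p = 0.0152), the largest single change being 2.54 in dorsal feather and the smallest 1.56 in reticulate scale. The gene belongs to the dermis list, and in chicken epidermis it did not exceed 3.80 TPM. Without the dorsal feather, femoral feather, scutate scale or claw pair its adjusted p was 0.0687, 0.0805, 0.233 and 0.0777, and with the feather tracts averaged to 1 library, 0.0637.

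ENSGALG00000004765 fell at morphogenesis. Its level was 0.0930 to 0.444 TPM in all 5 morphogenesis libraries against 30.1 and 37.1 TPM in dorsal and femoral feather, 41.5 and 36.1 TPM in scutate and reticulate scale and 93.0 TPM in claw at placode. The log2 change was -5.20 ± 0.23 (SE, n = 5 appendages; limma adjusted p = 0.000583). Without the scutate scale pair the adjusted p was 0.0524. In epidermis this gene was on or off by embryo at both stages. It reached 25.9 to 40.9 TPM in 2 of 10 epidermis libraries at morphogenesis and 5 of 10 at placode, and 0.192 TPM at most in the others. These counts include epidermis of the specimens that gave dermis. Among epidermis libraries of other specimens it was on in 2 of 5 at morphogenesis and 1 of 6 at placode. In all 7 specimens with both layers, dermis and epidermis were on the same side of 1 TPM. Stage and embryo cannot be told apart for it in dermis, where each specimen belongs to 1 stage.

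**Figure D2:**
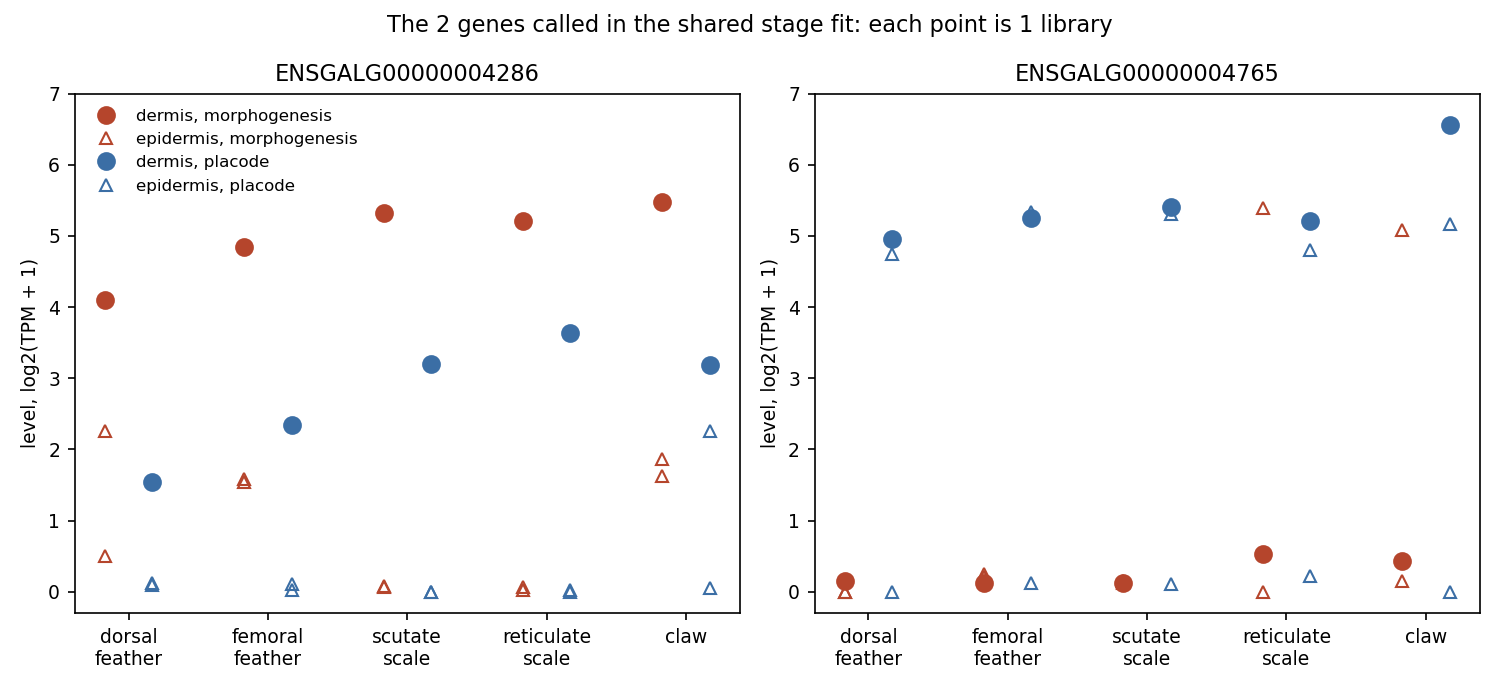
Level in log2(TPM + 1) of the 2 genes called in the shared fit, in each appendage, with morphogenesis (red) left of placode (blue); filled circles are dermis, 1 library each, and open triangles the epidermis libraries. ENSGALG00000004286 was higher in every dermis library at morphogenesis, while ENSGALG00000004765 was at most 0.192 TPM or at least 25.9 TPM in each epidermis library at either stage.

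A wider group of genes differed one way in every appendage, nearly all without passing the shared test. In all 5 appendages 1062 genes were higher at morphogenesis, 8.26% of those tested, and 1504 lower, 11.7%. These counts include the 2 genes called. The change was at least 0.5 on the log2 scale in each for 59 genes higher and 34 lower, and at least 1 in each for 5 and 5. The stages did not overlap in 85 genes that were higher at morphogenesis, 0.661% of those tested, and in 158 that were lower, 1.23%. How many would do so by chance was not worked out. The shared fit called 0.0156%. Among genes past 1 in every appendage, ENSGALG00000013378 was at 1.21, 1.52, 75.0, 104 and 12.4 TPM at morphogenesis, in the order of appendages used above, against 0.0556, 0, 4.2001, 12.7 and 4.04 TPM at placode. At each stage it was higher in foot dermis than in feather dermis, and in epidermis it was at most 0.499 TPM. ENSGALG00000014014, of the dermis list, had 29.4, 20.0005, 12.05, 7.67 and 31.6 TPM at morphogenesis, against 2.03, 2.86, 4.76, 1.15 and 10.0 TPM at placode. ENSGALG00000014615 had 24.7, 15.8, 6.64, 22.1 and 1.78 TPM at morphogenesis, against 85.4, 53.5, 80.5, 50.3 and 7.93 TPM at placode. ENSGALG00000012847, of the dermis list, had 20.7, 30.4, 2.68, 11.8 and 4.30 TPM at morphogenesis, against 43.6, 101, 66.8, 37.9 and 10.7 TPM at placode. Both were lowest relative to placode in scutate scale, with log2 changes of -3.41 and -4.204. The limma adjusted p of these 4 genes in the shared fit was 0.115 to 0.146.

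With the HH stage as a number in place of the stage name, limma called more genes: 182 rose, 1.42% of those tested, and 137 fell, 1.07%, and 167 and 131 of them had 1 sign in all 5 appendages. After median-of-ratios rescaling 251 rose and 117 fell. Of the 182, 80 were in the dermis list, which holds 7.87% of the genes tested, and 5 in the epidermis list. Of the 137 lower genes 22 were in the dermis list and 1 in the epidermis list, which holds 2.41% of the genes tested. Median changes of the 182 genes were 1.13 in dorsal feather, 0.89 in femoral feather, 1.28 in scutate scale, 0.35 in reticulate scale and 0.71 in claw. Those of the 137 were -0.89, -0.70, -1.01, -0.33 and -0.36. These medians describe genes that the fit itself chose. The count depended on the setting: 316 genes were called with a pseudocount of 0.1 TPM and 183 with 5 TPM, 8 with no filter and 1 with the feather tracts averaged. Without the dorsal feather, femoral feather, scutate scale or reticulate scale pair 1, 5, 16 and 10 genes were called, and without claw 586.

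**Figure D3:**
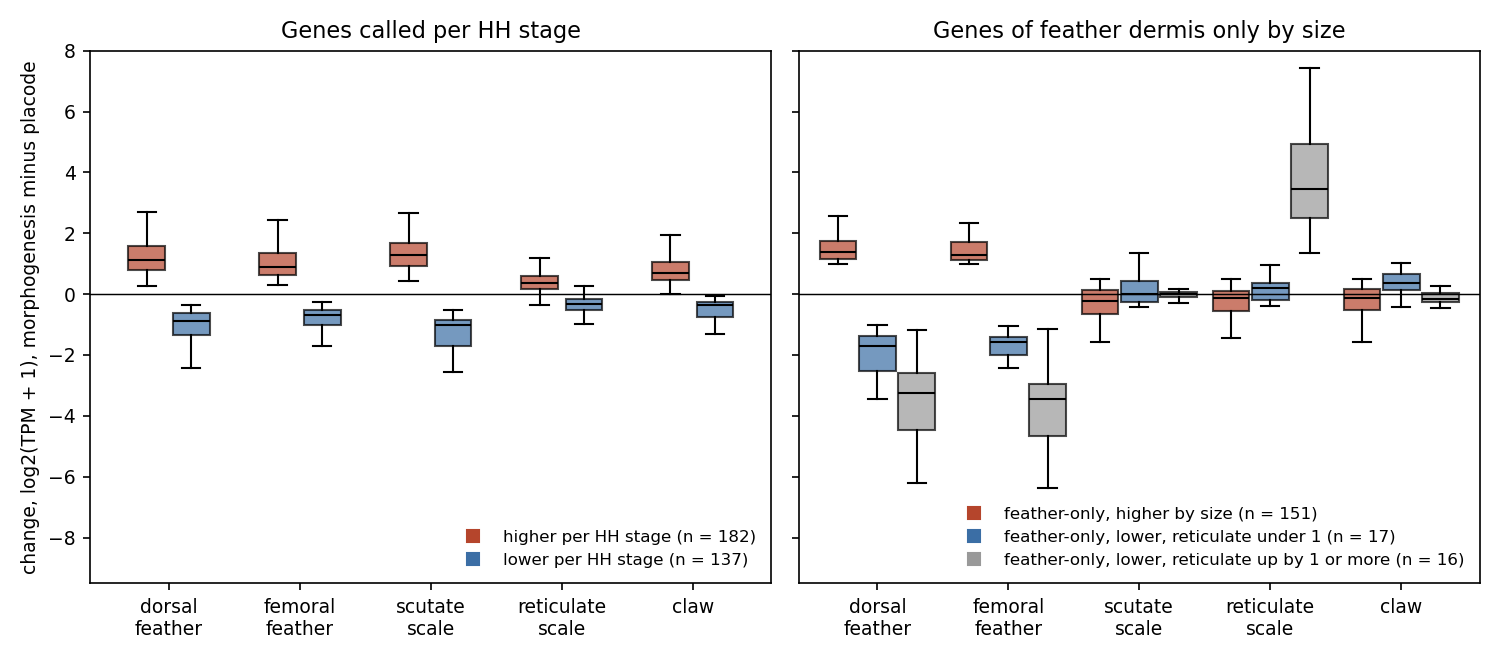
Change at morphogenesis minus placode, in log2(TPM + 1), in dermis of each appendage for genes called per HH stage (left panel) and for genes of feather dermis only by size (right panel). Boxes give the quartiles and median over genes and whiskers the last value within 1.5 box lengths. The genes were chosen by these changes, and the grey set was lower in both feathers and higher in reticulate scale.

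Among the steepest genes per HH stage, ENSGALG00000005253, of the dermis list, was at 29.5, 20.6, 45.5, 8.003 and 68.4 TPM at morphogenesis in the order above, against 2.19, 0.383, 0.543, 4.57 and 49.1 TPM at placode. It rose by 1.30 ± 0.19 (SE) on the log2 scale per HH stage, limma adjusted p = 0.0355, and was already high in claw at placode. ENSGALG00000023854 had the same shape, with 36.5, 27.01, 86.4, 13.7 and 97.02 TPM at morphogenesis, against 0.645, 3.04, 3.32, 3.92 and 81.2 TPM at placode, and rose by 1.26 ± 0.21 per HH stage (adjusted p = 0.0403). Of genes that fell, ENSGALG00000003465 had 1.31, 4.08, 0.430, 1.30 and 0 TPM at morphogenesis, against 20.5, 18.8, 17.2, 7.24 and 0.474 TPM at placode. Its change per HH stage was -1.02 ± 0.16 (adjusted p = 0.0395), and in claw it was low at both stages. ENSGALG00000004765 had the steepest fall of genes reaching a mean of 5 TPM, -2.17 ± 0.26 (adjusted p = 0.0284).

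Far more genes passed when the spread was taken from replicates rather than from the appendages' differing changes. A fit with a mean for each of the 20 chicken groups takes its spread from the replicate pairs of epidermis and assumes that dermis libraries vary alike; it was chosen after the data had been seen. By it 1028 of the genes tested in dermis rose on average over appendages, 7.99%, and 1368 fell, 10.6%, of which 523 and 796 had 1 sign in all 5 appendages. The split moved with scaling, to 1304 higher and 761 lower after median-of-ratios rescaling and to 1113 and 1312 after quantile normalization. Of the 182 genes that rose per HH stage, 136 rose by this fit too, and of the 137 that fell, 127. Both fits use the same dermis values, so this overlap describes the genes and does not test them.

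Genes of the dermis list leaned towards morphogenesis. By the 20-group fit 223 of its 1012 genes rose and 53 fell, while 29 of the 310 tested genes of the epidermis list rose and 31 fell. The shares were 22.0% and 5.24% in the dermis list and 9.35% and 10.0% in the epidermis list, beside 7.99% and 10.6% of all genes tested in dermis. That fit takes its spread from epidermis, where genes of the dermis list are lower than in dermis by the list's rule. Whether a smaller spread there raised the list's shares was not tested, so they cannot be compared with those of all genes as they stand. The median change of the dermis list was 0.52 in dorsal feather, 0.23 in femoral feather, 0.16 in scutate scale, 0.03 in reticulate scale and 0.35 in claw. The median of all genes tested was 0.06, 0.06, -0.27, -0.01 and -0.05 in the same order. The list's share of the library was 9.13% at morphogenesis and 7.47% at placode in dorsal feather, 8.59% and 7.52% in femoral feather, 17.3% and 8.80% in scutate scale, 13.7% and 11.8% in reticulate scale, and 11.03% and 7.42% in claw. It was higher at morphogenesis in 5 of 5 appendages, 1.14-fold to 1.97-fold, and in 5 of 5 after median-of-ratios rescaling. The 2 most abundant genes of the list differed most in foot dermis. ENSGALG00000023973 had 3216 and 2715 TPM in dorsal and femoral feather at morphogenesis, against 3540 and 3130 TPM at placode, but 27571, 20579 and 13310 TPM in scutate scale, reticulate scale and claw at morphogenesis, against 8469, 12483 and 3918 TPM at placode. ENSGALG00000009641 had 2712 and 2159 TPM in the feathers at morphogenesis, against 2782 and 2183 TPM at placode, and 13202, 11113 and 8429 TPM in the foot appendages at morphogenesis, against 5800, 9318 and 3739 TPM at placode. Neither passed the shared test, with limma adjusted p of 0.277 and 0.285. Without both genes the list's share was 13.2% at morphogenesis against 7.37% at placode in scutate scale and 8.53% against 6.83% in dorsal feather. It was 8.10% against 6.99% in femoral feather, 10.5% against 9.65% in reticulate scale and 8.85% against 6.66% in claw. The epidermis list had no common direction, with median changes of -0.29, 0.13, 0.25, 0.27 and -0.62.

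**Figure D4:**
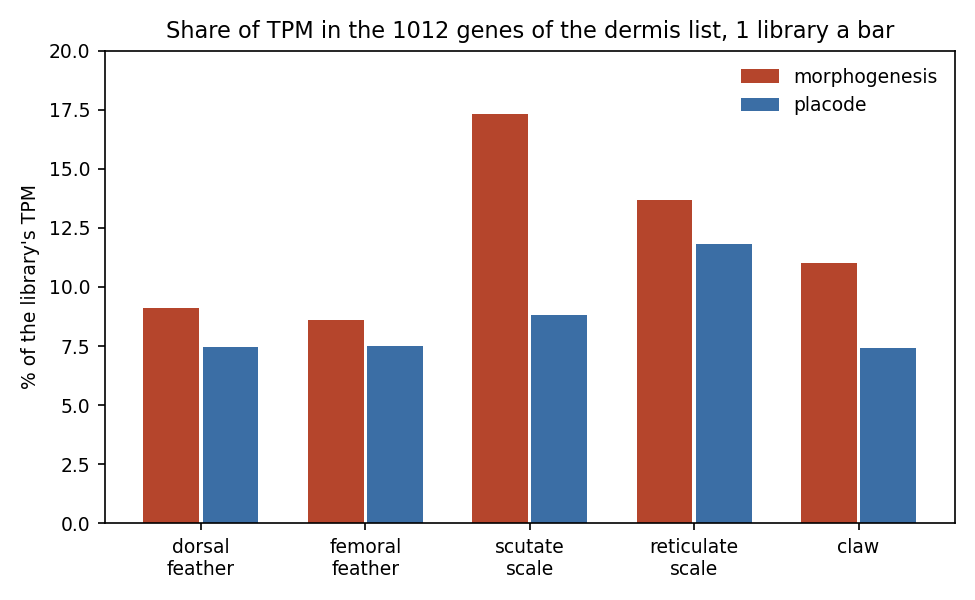
Share of the library's TPM, in percent, held by the 1012 genes of the dermis list in each dermis library, with morphogenesis (red) left of placode (blue). The share was higher at morphogenesis in 5 of 5 appendages, from 1.14-fold in femoral feather to 1.97-fold in scutate scale.

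The stage change of dermis differed from that of epidermis in many genes. In a fit of all 30 chicken libraries, limma called the difference for 1028 genes in which the change was more upward in dermis, 7.53% of 13645 tested, and for 483 in which it was more downward, 3.54%. With quantile normalization the split was 959 and 835. Without the dorsal feather, femoral feather or scutate scale libraries of both layers 459, 523 and 795 genes were called. The sets below were chosen on the same dermis libraries, so their counts describe them. Of the 59 genes higher by 0.5 or more in every appendage, 38 were called for a more upward change in dermis. In epidermis 11 of these 59 rose and 7 fell, where 8.4% of the genes tested in dermis rose in epidermis and 17.3% fell. Over all genes of that fit 1212 rose and 2360 fell in epidermis as deposited, and 1960 and 1935 with median-of-ratios scaling. Of the 34 genes lower by 0.5 or more, 15 were called for a more downward change in dermis, and in epidermis 12 fell and 3 rose. The difference was called for ENSGALG00000004286, 1.51 ± 0.43 on the log2 scale (SE, adjusted p = 0.0277), but not for ENSGALG00000004765, -3.75 ± 1.65 (adjusted p = 0.141). ENSGALG00000004286 rose in epidermis too, by 0.70 ± 0.25 (limma adjusted p = 0.0418). Its median levels there were 1.16 TPM at morphogenesis and 0.0304 TPM at placode. The added 1 TPM compresses changes at such levels, so the called difference need not be a larger fold change in dermis. Of the 182 genes that rose per HH stage 25 rose and 37 fell in epidermis, and of the 137 that fell 30 fell and 2 rose. With only the epidermis of specimens that also gave dermis, 268 genes were called in place of 1511. With dermis and epidermis of the same specimen and appendage as a pair (9 pairs from 7 specimens, 3 residual degrees of freedom), 241 were called, 77 of them more downward in dermis and the others more upward.

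For feather dermis, both tracts together were tested in a fit with separate stage effects for feather and for the other 3 appendages. It called 77 genes higher at morphogenesis in feather dermis, 0.599% of those tested, and 6 lower, 0.0467%. In scutate scale, reticulate scale and claw together it called 1 gene, 0.00778%, the falling ENSGALG00000004765. Of the 77 genes 35 were also higher in each of the other 3 appendages. The share of all genes tested that were higher in those 3 was not worked out. The tracts share specimens, and with the tracts averaged, or with either left out, 0 genes were called in feather; without reticulate scale 18 were called and without claw 380. Rescaling moved the split to 65 higher and 45 lower with median-of-ratios and 28 and 7 with quantile normalization. ENSGALG00000022403 was at 147 and 174 TPM in dorsal and femoral feather at morphogenesis, against 0 and 0.182 TPM at placode. In scutate scale, reticulate scale and claw it had 25.4, 75.8 and 24.2 TPM at morphogenesis, against 86.5, 34.9 and 78.0 TPM at placode. Both feather placode libraries, from 1 specimen, were thus the only dermis libraries near 0. In epidermis it ranged from 0.0438 to 50.8 TPM at morphogenesis and from 0 to 48.2 TPM at placode. Its feather change was 7.21 ± 0.66 (SE, n = 2 tracts, limma adjusted p = 0.0266), with 7.208 in the dorsal and 7.209 in the femoral tract. This fit pools its spread over feather and foot. Its SE and p-values therefore do not measure replication within feather, where each stage came from 1 specimen. ENSGALG00000020517 had 83.7 and 57.0 TPM in the feathers at morphogenesis, against 0.843 and 1.36 TPM at placode. In claw it had 16.9 TPM at morphogenesis against 4.27 TPM at placode, and in the scales it stayed under 1 TPM. Its feather change was 5.07 ± 0.62 (adjusted p = 0.0376), and it passed in 5 of 13 other settings, missing with a pseudocount of 0.1 TPM (0.0844), no filter (0.0786), quantile normalization (0.0555), plain eBayes (0.0508) and without reticulate scale (0.0778).

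The difference between feather and the other appendages was called for 0 genes by limma, with a smallest adjusted p of 0.108 and 1892 genes at an unadjusted p below 0.05. It was called for 15 genes without claw, 5 without reticulate scale and 1 without scutate scale. Genes of feather dermis only are therefore described by size: at least 2-fold in both tracts one way, and by less than 0.5 on the log2 scale that way in each other appendage. This rule was met by 184 genes: 33 were lower at morphogenesis in feather dermis only, 0.257% of those tested, and the others, 1.17%, were higher. In the feather minus other difference the median of all genes was 0.16, and -0.01 once rescaled by median ratios. The count by size became 92 higher and 47 lower with that rescaling and 82 and 51 with quantile normalization. Of the genes higher as deposited 92 met the rule after median-of-ratios rescaling too, and of the 33 lower, 33. Just outside the limits lay 86 genes with another appendage up by 0.5 to 1 and 150 genes whose smaller feather change was 0.8 to 1.

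The median level in feather dermis of the genes higher there only was 18.3 TPM at morphogenesis and 4.87 TPM at placode. In scutate scale it was 7.90 TPM at morphogenesis and 11.2 TPM at placode, in reticulate scale 7.28 and 10.7 TPM, and in claw 7.74 and 10.8 TPM. Feather dermis at morphogenesis lay above every foot dermis library for 70 of them, where it did for 12.3% of all genes tested, and at placode it lay below every foot dermis library for 61, where it did for 10.6% of all genes tested. Of these genes 25 were in the dermis list and 0 in the epidermis list. By the 20-group fit, which called the feather minus other difference for 508 genes more upward in feather (3.95%) and 203 more downward (1.58%), 82 of them passed, and 10 of the 33 lower genes; rescaling moved that split to 345 and 356 with median-of-ratios and 389 and 466 with quantile normalization. The rule used the same values, so these counts describe the genes and do not test them. Of the genes higher in feather only, 15 (9.93%) were 2-fold or more lower in reticulate scale, the mirror of the 16 genes that split the libraries by embryo. Among all 425 genes 2-fold or more higher in both feathers, 22 (5.18%) were. The part of the embryo in the genes higher in feather only was not tested.

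**Figure D5:**
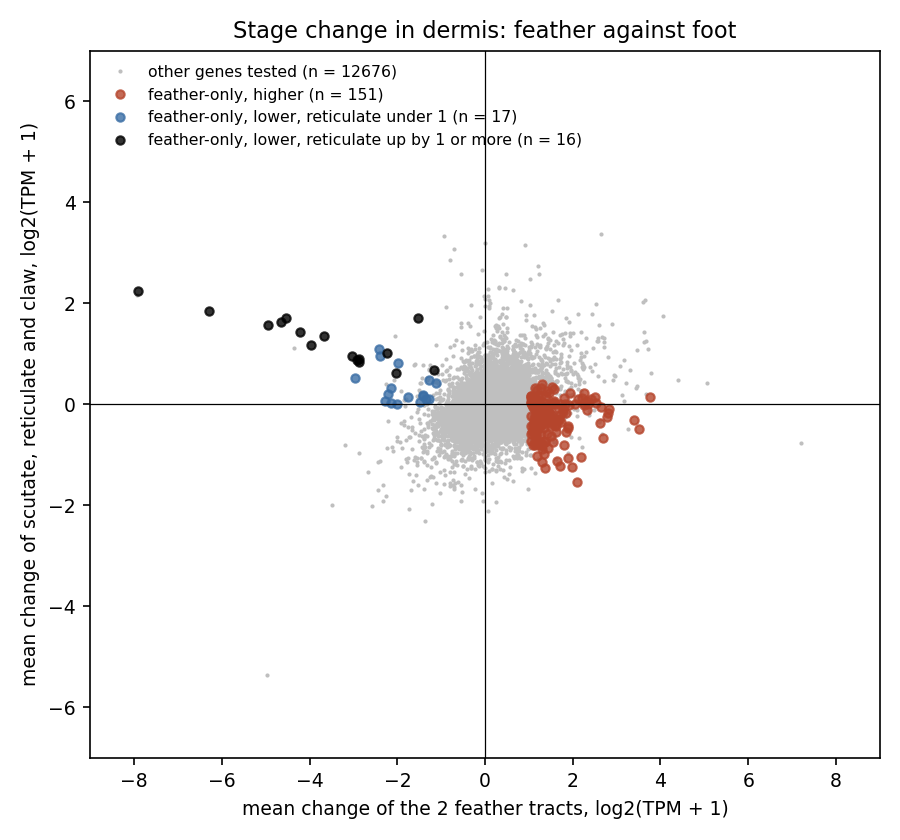
Mean stage change of both feather tracts (x) against that of scutate scale, reticulate scale and claw (y), in log2(TPM + 1), morphogenesis minus placode, for each of the 12860 genes tested. The genes higher in feather only lie right of 1, and the 16 genes that were lower in feather and higher in reticulate scale lie upper left.

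ENSGALG00000010163, of the dermis list, had the highest level in feather dermis at morphogenesis among the named feather-only genes that were higher. It was at 90.9 and 165 TPM in dorsal and femoral feather at morphogenesis, against 8.58 and 13.5 TPM at placode. Scutate scale, reticulate scale and claw had 21.1, 32.2 and 11.4 TPM at morphogenesis, against 16.7, 24.7 and 37.9 TPM at placode. The feathers were the highest dermis libraries at morphogenesis and the lowest of those at placode. The feather minus other difference was 3.71 ± 0.63 (SE; limma adjusted p = 0.129), and without claw 3.04 with an adjusted p of 0.0414. ENSGALG00000015634 had 9.15 and 17.04 TPM in the feathers at morphogenesis, against 0.308 and 0.0960 TPM at placode. In the scales it stayed at 0.791 to 2.07 TPM, and claw had 20.3 TPM at morphogenesis and 28.8 TPM at placode, above both feathers. Its difference was 3.98 ± 0.44 (adjusted p = 0.108).

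The 33 genes lower in feather dermis only were of 2 kinds. Of these, 16 were the genes that split the libraries by embryo. ENSGALG00000014366 was at 0.425 and 0.130 TPM in dorsal and femoral feather at morphogenesis, against 300.1 and 307 TPM at placode. In reticulate scale it had 221 TPM at morphogenesis and 0.295 TPM at placode, in claw 222 and 291 TPM, and in scutate scale 0.223 and 0.504 TPM. ENSGALG00000000395 followed it, with 0.253 and 0 TPM in the feathers at morphogenesis against 92.5 and 82.6 TPM at placode, and 63.0 TPM against 0.128 TPM in reticulate scale. Of the 16 genes 13 were under 1 TPM in all 5 low libraries and at 1 TPM or more in all 5 high ones, and the part of the embryo in these values was not tested. In chicken epidermis the 16 summed to 369 to 764 TPM in 11 libraries and 31.2 to 116.2 TPM in the other 9. Without the 44 genes that moved 2-fold or more in opposite directions in feather and reticulate scale, the counts called were as before, 83 in feather and 0 for the difference. The 44 genes were chosen on these same values, and the genes that stayed kept theirs. The unchanged counts therefore do not test the part of the embryo in the feather calls.

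The other 17 genes had a median level in feather dermis of 2.13 TPM at morphogenesis and 9.07 TPM at placode. ENSGALG00000001927 was at 23.1 and 19.5 TPM in dorsal and femoral feather at morphogenesis, against 175 and 170 TPM at placode. Scutate scale, reticulate scale and claw had 89.7, 105 and 115.7 TPM at morphogenesis, against 89.6, 60.5 and 67.0 TPM at placode. Both feathers at morphogenesis were below every other dermis library, and both at placode above. The gene fell in feather dermis by the test of that contrast, -2.96 ± 0.22 (SE, n = 2 tracts, limma adjusted p = 0.0244), with the spread pooled over feather and foot. Its feather minus other difference was -3.49 ± 0.28 (adjusted p = 0.108). ENSGALG00000018942 had 3.70 and 4.06 TPM in the feathers at morphogenesis, against 50.1 and 12.4 TPM at placode, so the tracts differed in size. Scutate scale differed the other way, with 6.80 TPM at morphogenesis and 0 TPM at placode.

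The genes higher in feather dermis only were read in libraries that the rule did not use. In feather epidermis of other chicken embryos, 1 library for each stage and tract, 12 of the genes were 2-fold or more higher at morphogenesis in both tracts, where 2.76% of all genes tested were, and 10 were 2-fold or more lower, where 3.63% were. At each stage both of those tracts came from 1 specimen, so they are not independent. In emu feather epidermis 2 of the 81 genes with an emu value were 2-fold or more higher, where 1.37% were. The stage changes of dermis and of other embryos' epidermis correlated across genes at -0.08 in dorsal feather, -0.11 in femoral feather, 0.18 in scutate scale, -0.00 in reticulate scale and 0.05 in claw.

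By the same size rule each foot appendage had genes that were 2-fold or more higher or lower in it and by less than 0.5 that way in the others, which may differ the opposite way. For a single library a stage this is a looser rule than for the 2 feather tracts. Scutate scale had 131 higher and 389 lower, 1.02% and 3.02% of the genes tested. Claw had 159 and 237, 1.24% and 1.84%, and reticulate scale 57 and 54, 0.443% and 0.42%. These counts are given as deposited only. With median-of-ratios rescaling, all genes 2-fold or more apart in scutate scale went from 826 higher and 988 lower to 1248 and 540. In scutate scale ENSGALG00000016448 had 14.5 TPM at morphogenesis and 0.341 TPM at placode, and ENSGALG00000012015, of the dermis list, 0.984 and 22.1 TPM. In claw ENSGALG00000010928 had 185 TPM at morphogenesis and 1.43 TPM at placode, and at most 0.0943 TPM in any other dermis library. ENSGALG00000019229, also of the dermis list, had 2.09 TPM in claw at morphogenesis and 75.6 TPM at placode, while scutate scale had 67.2 TPM at morphogenesis and 10.97 TPM at placode and reticulate scale 324 and 161 TPM. The genes higher in reticulate scale included ENSGALG00000014366, from the 16 genes that split the libraries by embryo. They also included ENSGALG00000022174, at 496 TPM in reticulate scale at morphogenesis and 1.69 TPM at placode. In dorsal and femoral feather that gene had 2.11 and 0.686 TPM at morphogenesis, against 582 and 542 TPM at placode. Claw had 465 TPM of it at morphogenesis and 547 TPM at placode, and scutate scale 0.192 and 1.12 TPM. It was thus high in the same dermis libraries as those 16 genes. The part of the embryo in this set was not tested. In reticulate scale ENSGALG00000006323 had 12.04 TPM at morphogenesis and 196 TPM at placode, and ENSGALG00000016669 had 10.8 and 153 TPM. Both were listed at 0 in feather dermis at placode, had at most 1.17 TPM there at morphogenesis, and were higher at morphogenesis in scutate scale, at 26.8 TPM against 6.63 TPM and at 30.1 TPM against 6.62 TPM. In claw they had 7.23 TPM against 1.43 TPM and 6.28 TPM against 1.16 TPM. Foot scales together, with scutate and reticulate scale both past 2-fold one way and feathers and claw by less than 0.5 on the log2 scale that way, had 26 genes higher and 20 lower.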

How the data were processed

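The authors deposited 1 table of TPM for 17889 chicken gene identifiers and 60 libraries. Per the submitters' processing notes, CASAVA, TopHat2 2.0.6 and HTSeq 0.5.3p9 were used; the genome build is not given in the sources used here. Per the labels' protocols, skin was split into dermis and epidermis with dispase and its polyadenylated RNA read with strand kept. TPM keeps no depth and rises in some genes when abundant others fall. From these values, log2(TPM + 1) of 12860 genes with 1 TPM in at least 2 dermis libraries was fitted with limma 3.58.1 in R 4.3.3 (trend and robust shrinkage, Benjamini-Hochberg at 0.05, 4 residual degrees of freedom with appendage and stage as terms, 3 with separate feather and foot effects). Fold changes on this scale understate the change of low genes. Of 45 pairs of dermis libraries 0 were identical, and 0 columns lacked a sample. The code of the fits was run on simulated data with independent errors, a limited spread and planted changes. That setting holds no changes that vary freely between appendages and no specimens shared by libraries. It therefore does not check the error rates of the fits on these data. P-values measure the spread between appendages, which come from few embryos.

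The comparison, lists and named genes were chosen with earlier results of these data known. The named-gene rule asked for symbols; since none could be had, at most 2 identifiers each way are named in each comparison, by size of change among genes whose higher stage averaged 5 TPM, and 30 gene lists by symbol, cell type markers included, could not be applied. The fit over HH stage stands beside the fit over stage names; the 20-group fit was added after the data had been seen. Other alternatives are under the closing section.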

Additional observations from a re-analysis of the deposited data

Results flagged for a closer look

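Among 32 sets of 5 appendage values, 5 held a value set apart from the other 4, where chance marks about 1 in 20 of independent sets; these sets repeat genes that were named for the size of their changes, so that rate does not apply to them. Claw at placode had 0.590% of its TPM in the epidermis list, the highest share of the dermis libraries. ENSGALG00000004765 had a log2(TPM + 1) level of 6.55 in claw at placode, above the other placode dermis, and ENSGALG00000014615 had 3.16 there, below the other placode dermis. In scutate scale the log2 change was -3.41 for ENSGALG00000014615 and -4.20 for ENSGALG00000012847, each lower than in the other 4 appendages.

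The stage change differed between dermis and epidermis, by limma's test of the difference itself, for 9 of the named genes. The log2 difference was 3.42 for ENSGALG00000023854, 2.60 for ENSGALG00000005253, 2.05 for ENSGALG00000013378, 1.81 for ENSGALG00000014014, 1.77 for ENSGALG00000009641, 1.65 for ENSGALG00000023973 and 1.51 for ENSGALG00000004286. It was -1.58 for ENSGALG00000003465 and -1.35 for ENSGALG00000012847. Apart from ENSGALG00000009641 and ENSGALG00000023973, these genes were named by the size of their dermis change. The same dermis values enter the difference, so that choice favours a call. Genes near 0 TPM in epidermis, such as ENSGALG00000013378 at 0.499 TPM at most, can show little change there on log2(TPM + 1). That too favours a call. The change had 1 sign in both feather tracts and the other in all 3 foot appendages in 4 named genes, though it was near 0 in scutate scale for ENSGALG00000001927 and in both feathers for ENSGALG00000009641, with a log2 feather minus other difference of 3.98 in ENSGALG00000015634, -3.49 in ENSGALG00000001927, -1.57 in ENSGALG00000023973 and -0.90 in ENSGALG00000009641. None of these 4 differences passed the adjusted test.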

How the results depend on the processing

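Limits: dermis has 1 library a group, depth is unknown from TPM, embryo and stage are confounded, and the tracts share specimens. Counts below, in order, are the shared effect (2 genes, both of 1 sign in 5 appendages), the feather effect (83), the foot effect (1), the feather minus other difference (0), the change per HH stage (319) and the layer difference (1511). The cause was not tested for these shifts, except that fewer libraries or more genes enter where said.

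With a pseudocount of 0.1 TPM feather had 35 calls; with 5 TPM foot had 0 and the HH fit 183. Without a filter the shared count was 1 (1 of 1 sign), feather 32, foot 0 and HH 8; with genes averaging 5 TPM feather had 136 and HH 444. Quantile normalization gave 4 shared (4 of 1 sign) and 35 in feather. With the tracts averaged, 1 was shared (1 of 1 sign), feather had 0 and HH 1. Without trend and robust shrinkage feather had 52 and HH 56. Replacing stage by HH number gave 319 (298 of 1 sign), and dropping the appendage term 1 (1 of 1 sign). Against scutate scale and claw only, the feather difference had 5 calls. The 20-group fit, chosen after seeing the data, gave 2396 shared (1319 of 1 sign), 1649 in feather, 1440 in foot and 711 differences; with median-of-ratios rescaling 2065 (1095), 1755, 1146 and 701, and with quantile normalization 2425 (1288), 1908, 1459 and 855. With only epidermis of specimens that gave dermis the layer difference had 268 calls.

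Leaving out each appendage pair in turn gave 0 to 2 shared calls (0 to 2 of 1 sign), 0 to 380 in feather, 0 to 2 in foot, 0 to 15 differences, 459 to 2039 layer differences and 1 to 586 for HH. Of 220 single-gene values under alternatives 188 kept direction and side of the threshold, 25 lost the call, 7 gained it and 0 reversed. A call could be lost only where the main fit had made it. In the shared fit ENSGALG00000004286 kept it in 8 of 15 alternatives and ENSGALG00000004765 in 14 of 15. In feather ENSGALG00000020517 kept it in 5 of 13, and ENSGALG00000022403, ENSGALG00000004765 and ENSGALG00000001927 in 10 of 13 each. For the layer lists 30 of 30 medians moved less than the spread between appendages. That spread is wide for the epidermis list, whose median changed sign within it. It went from -0.073 to 0.110 without claw and to 0.019 with genes averaging 5 TPM. With a replicate block pairing dermis and epidermis of 1 specimen, an alternative chosen after seeing the data, the layer difference had 241 calls in place of 1511, from fewer libraries. No specimen gave dermis at both stages, so between stages only the appendage pairs libraries. Leaving out genes of the Z and W chromosomes was not run, since identifiers could not be placed on chromosomes.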
